A study of Homo sapiens with 2 samples.

Results

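A set of 9 genes of deoxynucleotide synthesis and breakdown was followed in HCT116 colon carcinoma cells, an established human cell line, after exposure to LXR623, a synthetic activator of liver X receptors (LXRs). Both the members and the lists of related genes below were chosen by function, with earlier results of these data known. Rows of the members were found by symbol in the platform annotation, which located 9 of 9 among 22458 genes with a symbol. The members were TYMS, RRM1, RRM2, RRM2B, TK1, DUT, DCTPP1, SAMHD1 and DCK. The study hybridized total RNA of 1 culture that received 20 µM LXR623 and of 1 culture that received 0.1% DMSO, the solvent control, with a treatment of 24 h. The label of the control gives no time of its own. The treatment medium held 1.5% FBS, and the medium was RPMI by the sample labels and DMEM by the methods of the study. By the methods, LXR623 was dissolved in DMSO, and the sample labels do not give the DMSO content of that culture. The methods put final DMSO below 0.1% by volume, whereas the control label names 0.1%. With 1 array per condition no error, interval or test can be given, and every difference below compares these arrays only.

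Cells build DNA from deoxynucleoside triphosphates, the dNTPs. Ribonucleotide reductase makes deoxynucleotides from ribonucleotides, and thymidylate needs a further methylation step. Nucleoside kinases recover deoxynucleosides from breakdown or from outside the cell, while hydrolases remove surplus or damaged dNTPs. Supply is high in S phase, when DNA is copied, and several of its genes are known targets of the E2F transcription factors. A small background supply for DNA repair and for mitochondrial DNA runs outside S phase, to which RRM2B, a gene induced by p53, contributes. HCT116 cells carry wild-type p53.

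The deposited values are log2 intensities summarized by RMA, so a difference of 1 is a change by a factor of 2. The arrays had medians of 4.40 (DMSO) and 4.43 (LXR623). A gene counted as measured when the higher of its values was at least 4.42, the median over the table, which held for 12279 probe sets and for 9 of 9 members. Epithelial markers of the line were bright in both arrays, with EPCAM at 10.15 and 10.21 and KRT18 at 9.72 and 9.66, whereas VIL1, CDX1 and CEACAM5 were dim. KRT8, another epithelial keratin, had 5.63 with DMSO and 7.14 with LXR623. Among 9 markers of other cell types, COL1A1, a fibroblast collagen, was the only 1 to count as measured, at 5.58 and 5.70. The LXR target ABCA1, a cholesterol exporter, had 3.58 with DMSO and 5.14 with LXR623, and SREBF1, ABCG1 and LPCAT3 had higher values by 0.91, 0.74 and 0.73. Of 7 measured LXR targets, these 4 were at least 1.5-fold higher and 0 lower, beside 6.3% and 5.78% of all measured probe sets. NR1H3, SCD and MYLIP, at 0.58, 0.44 and 0.35, were within 1.5-fold. ABCA1 and ABCG1 counted as measured only through the LXR623 array. When both values had to reach 4.42, 2 LXR targets were at least 1.5-fold higher.

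Promoters are shown first because several members are known to be controlled there, and the letters allow the elements of each gene to be read beside its values. RefSeq windows of build GRCh38.p14, from 250 bases before to 50 bases after each transcription start, were found for 8 of the 9 members in 13 windows. The member without a window was RRM2B, so all members in the motif counts had negative differences. The lines below give the 130 bases before the start, 5′ to 3′ on the strand of the gene, for RRM2, which had the largest difference in size, for DCK, which was also at least 1.5-fold lower, for TYMS and the fourth listed start of DUT, which hold E2F letters there, and for SAMHD1 with its paired CCAAT boxes. Capitals mark, on either strand, the E2F letters, the CCAAT box and the GC box.
RRM2, first listed start (chr2:10122609-10122738, plus strand): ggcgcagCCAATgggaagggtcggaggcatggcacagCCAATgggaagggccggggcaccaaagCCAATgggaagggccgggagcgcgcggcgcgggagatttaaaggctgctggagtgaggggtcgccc
TYMS (chr18:657523-657652, plus strand): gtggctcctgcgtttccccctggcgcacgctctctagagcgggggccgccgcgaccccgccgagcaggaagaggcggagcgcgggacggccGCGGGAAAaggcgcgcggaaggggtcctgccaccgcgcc
DUT, start 4 (chr15:48332067-48332196, plus strand): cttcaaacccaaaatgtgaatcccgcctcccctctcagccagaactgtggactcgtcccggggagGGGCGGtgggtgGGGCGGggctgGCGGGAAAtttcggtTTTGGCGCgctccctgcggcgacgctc
DCK (chr4:70993519-70993648, plus strand): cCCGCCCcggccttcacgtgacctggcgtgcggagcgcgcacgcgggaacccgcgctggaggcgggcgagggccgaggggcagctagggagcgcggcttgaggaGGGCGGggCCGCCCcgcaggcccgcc
SAMHD1 (chr20:36951709-36951838, minus strand): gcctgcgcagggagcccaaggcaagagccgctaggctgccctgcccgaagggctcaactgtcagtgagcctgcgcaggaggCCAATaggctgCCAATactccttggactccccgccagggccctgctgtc

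The search used TTTCCCGC, TTTCGCGC, TTTGCCGC and TTTGGCGC for E2F, CCAAT for the box bound by NF-Y, GGGCGG for the GC box bound by Sp1 and TTTGAA for the cell cycle homology region, each on both strands. The first RRM2 window held 3 CCAAT boxes, beginning 123, 93 and 66 bases before the start, and all 3 lie within the same 15 letters, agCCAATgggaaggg. Boxes this many on 1 strand were found in 1.68% of all 35116 windows, and 3 or more counted over both strands in 3.26%. TYMS held 1 E2F match, 39 bases before its start, which reads GCGGGAAA on the printed strand. The fourth DUT window held 2 E2F matches, 42 and 27 bases before the start, whereas its other 3 windows held none. The DCK window held 1 E2F match, which lies after the start and is not printed, and 3 GC boxes. SAMHD1 held 2 CCAAT boxes, and the second TK1 window 2 as well.

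**Figure D1:**
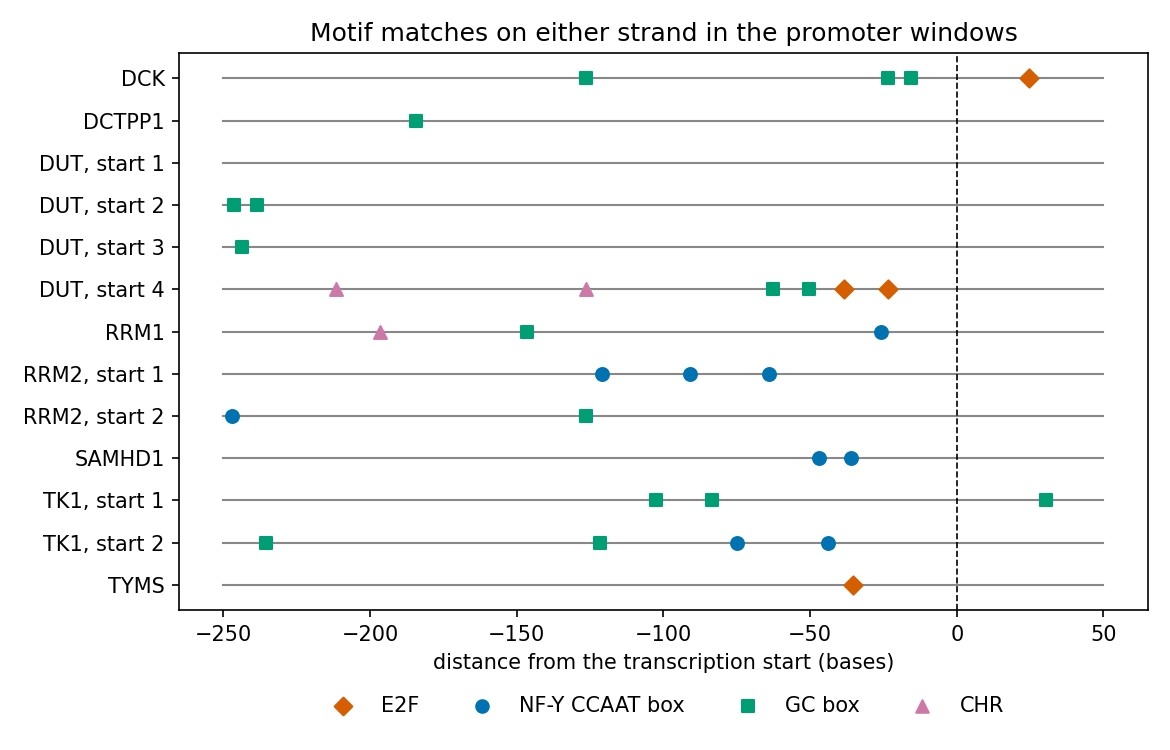
Positions of motif matches on either strand in the 13 promoter windows of 8 members, with the distance from the transcription start in bases on the x axis and 1 line per window. The 3 CCAAT boxes of RRM2 stand before its first listed start, and E2F matches are seen in TYMS, DCK and the fourth window of DUT.

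Over the members, an E2F match was present in 3 of 8 genes with a window, where 3.99% of all 27305 genes held one. CCAAT boxes were present in 4 of 8, against 39.7% of all genes, GC boxes in 6 of 8, against 48.3%, and the cell cycle homology region in 2 of 8, against 18.2%. A match is a description of the letters, and members with several listed starts had more windows to match in. Of the 3 members with an E2F match, DCK was at least 1.5-fold lower, and TYMS and DUT were within 1.5-fold. RRM2 and DCTPP1 held no such letters in these windows. The search took 4 exact words, so a missing match does not mean a missing E2F site. The part of E2F in the differences was not tested.

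In the LXR623 array 3 of the 9 members were at least 1.5-fold lower, RRM2, DCK and DCTPP1, and 1 was at least 1.5-fold higher, RRM2B. Over all measured probe sets these shares were 5.78% lower and 6.3% higher. As the members were chosen with earlier results of these data known, the shares are a description and not a test. After each of 3 rescalings of the arrays the lower members were 2, RRM2 and DCK. The other 5 members had negative differences within 1.5-fold, so that 8 of 9 members lay below 0, compared with 51.7% of measured probe sets. The median difference of the members was -0.35, beside -0.02 for all measured probe sets. At a threshold of 2-fold, 0 members were lower and 0 higher, and the shares of all probe sets were 0.741% and 1.38%. At a looser threshold, a log2 difference of 0.32, 5 members were lower and 1 was higher, beside 19.2% and 18.1%. In RNA of a whole culture, fewer cells in S phase and less RNA per cell cannot be told apart.

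**Figure D2:**
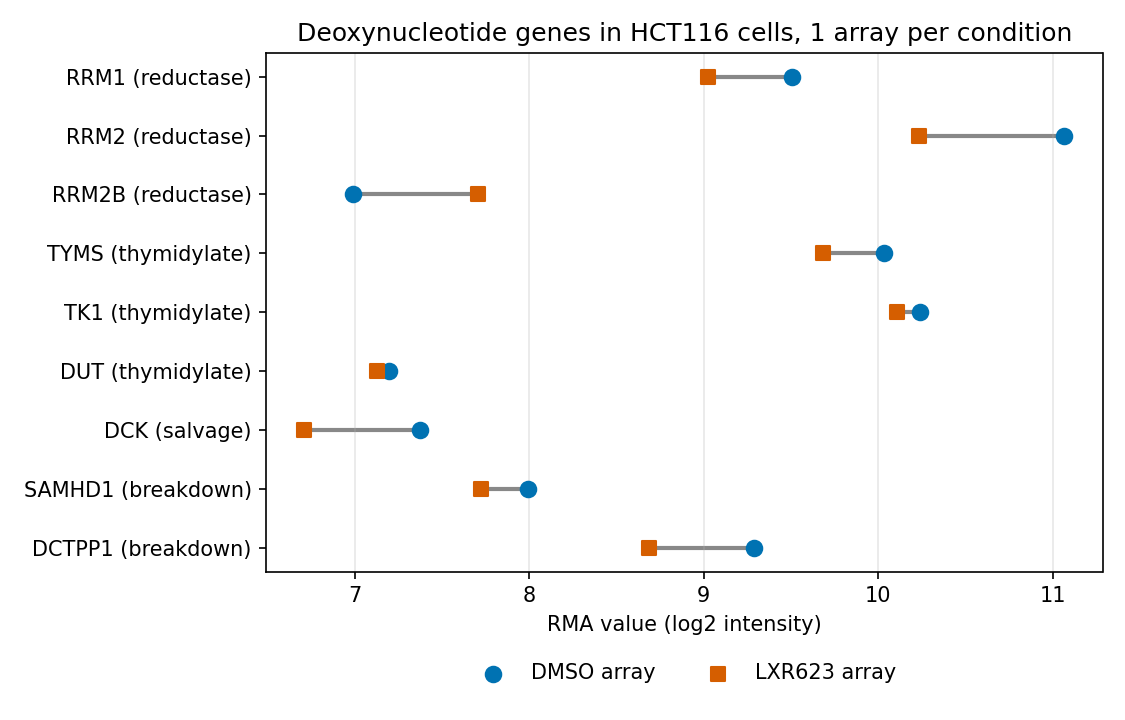
RMA values in log2 intensity of the 9 members in the DMSO array (circles) and the LXR623 array (squares), 1 array per condition, grouped by role. RRM2B is the member whose LXR623 value lies to the right of its DMSO value, and the widest shift to the left is that of RRM2, from 11.07 to 10.23.

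Ribonucleotide reductase held the extremes of the members in both directions. RRM2, the small subunit of S phase that carries the radical for the reaction, had a value of 11.07 with DMSO and 10.23 with LXR623. The difference was -0.83, which places the LXR623 value 1.78-fold below the DMSO value. Of the 500 measured probe sets nearest to RRM2 in mean intensity, 0 had a lower difference, and the central 95% of them ran from -0.52 to 0.61. RRM2 is among the brightest probe sets, with a DMSO value above 99.8% of the table, so most of those 500 were dimmer.

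RRM2B, the p53-inducible small subunit, which stands in for RRM2 outside S phase, moved the other way. Its value was 6.99 with DMSO and 7.70 with LXR623, a difference of 0.71 or 1.64-fold. Among all measured probe sets, 3.75% had a higher difference. The central 95% of the 500 nearest in intensity ran from -0.75 to 0.71, so RRM2B lay at the upper edge of what like-bright genes showed. The gap between the differences of the small subunits was 1.55 on the log2 scale. Intensities of different probe sets cannot be compared, so this gap shows unequal change and not how much of either subunit the cells held.

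RRM1, the large catalytic subunit that either small subunit joins, had 9.50 with DMSO and 9.03 with LXR623. Its difference of -0.48 was within 1.5-fold and lay between those of its partners. Of the 500 probe sets nearest in intensity, 5.6% had a lower difference.

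Genes that supply thymidylate differed less. TYMS, which methylates dUMP to dTMP and is the target of fluoropyrimidine drugs, had 10.03 with DMSO and 9.68 with LXR623, a difference of -0.35. TK1, the cytosolic thymidine kinase of dividing cells, had 10.24 and 10.11, a difference of -0.13. DUT, which hydrolyses dUTP and thereby keeps uracil out of DNA and feeds TYMS, had 7.20 and 7.13, a difference of -0.07. All 3 were below 0 and within 1.5-fold, and the values of TK1 and DUT lay well inside those of like-bright probe sets, of which 33.8% and 45.4% had lower differences. TYMSOS, a long noncoding RNA whose gene overlaps TYMS, had 5.39 and 5.08, a difference of -0.31. RRM2 also overlaps MIR4261 and SAMHD1 overlaps TLDC2, both too dim to count as measured. RefSeq names 8 pseudogenes after DUT, 3 after RRM2 and 2 after TYMS, and whether the probes tell these copies apart was not tested.

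DCK, the kinase that opens the salvage of deoxycytidine and also activates the drugs gemcitabine and cytarabine, had 7.38 with DMSO and 6.71 with LXR623. The difference was -0.66, or 1.58-fold lower. At this intensity the spread between the arrays was wider than for RRM2, and 4.8% of the 500 nearest probe sets had a lower difference. The central 95% of those ran from -0.80 to 0.73, so DCK lay inside it although it passed 1.5-fold.

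Of the 3 members that hydrolyse nucleotides of the pool, DUT included, 1 was at least 1.5-fold lower. DCTPP1, which removes dCTP and its modified forms, had 9.28 with DMSO and 8.69 with LXR623, a difference of -0.60. This is 1.51-fold, just past the threshold, and the next member by size, RRM1, fell short of it. After each of 3 rescalings of the arrays DCTPP1 was no longer at least 1.5-fold lower, with differences from -0.58 to -0.57. SAMHD1, which cleaves dNTPs to deoxynucleosides and thereby limits the pool in resting cells, had 7.99 and 7.72, a difference of -0.27. Of the probe sets nearest to SAMHD1 in intensity, 22% had a lower difference.

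**Figure D3:**
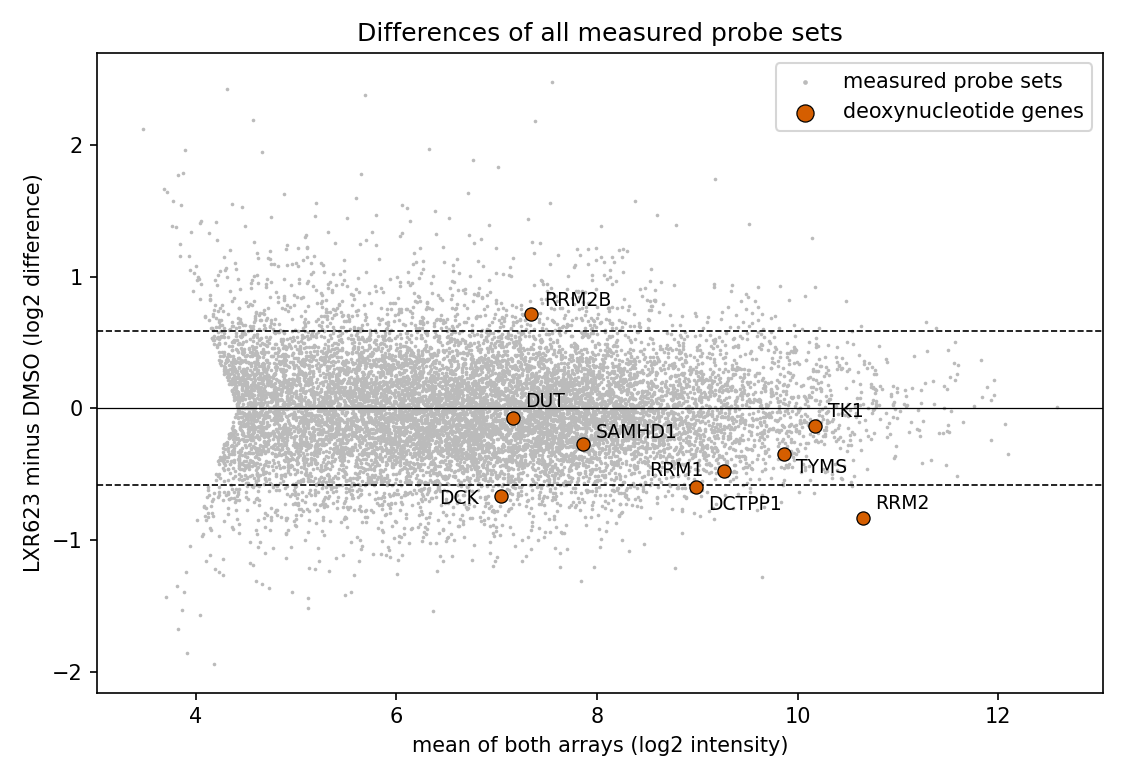
Log2 difference (LXR623 minus DMSO) against the mean log2 intensity of both, for 12279 measured probe sets (grey) and the 9 members (orange), with dashed lines at 1.5-fold. RRM2, at -0.83, stands below the 500 probe sets nearest to it in intensity, most of them dimmer, whereas DUT and TK1 lie near 0.

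The order of the members from the lowest difference was RRM2, DCK, DCTPP1, RRM1, TYMS, SAMHD1, TK1, DUT and RRM2B. With 1 array per condition, no neighbours in this order can be said to differ. Enzymes of synthesis and of breakdown stood on both sides of the median.

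Counterparts of the members with a like function were read next, a comparison chosen after the values were seen. TK2, the mitochondrial thymidine kinase, had 5.56 with DMSO and 6.05 with LXR623, a difference of 0.49, where its cytosolic counterpart TK1 had -0.13. DGUOK, the mitochondrial deoxyguanosine kinase, had 8.11 and 8.31, a difference of 0.20, where DCK, its cytosolic relative, had -0.66. In the pairs TK1 and TK2, DCK and DGUOK, and RRM2 and RRM2B, the second gene had the higher difference, by 0.62, 0.87 and 1.55. TK2 and DGUOK themselves were within 1.5-fold. Of 10 measured genes that supply or use dNTPs in mitochondria, 0 were at least 1.5-fold lower and 1, RRM2B, was higher. Over all measured probe sets these shares were 5.78% and 6.3%. This list includes RRM2B, TK2 and DGUOK themselves, and 6 of its 10 genes had negative differences. Its median was -0.09, and -0.11 over the 9 genes other than RRM2B.

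Among 16 other measured kinases of nucleosides and nucleotides, TK2 and DGUOK included, 1 was at least 1.5-fold lower and 0 higher, with a median of -0.07. Over all measured probe sets 5.78% were at least 1.5-fold lower and 6.3% higher, so this count lay near those shares. The same shares stand beside every list that follows. UCK1, a uridine and cytidine kinase, had 5.73 with DMSO and 5.01 with LXR623, a difference of -0.72. UCK2, its relative, differed by -0.50, and DTYMK, which converts dTMP from TYMS or TK1 to dTDP, by -0.43, both within 1.5-fold.

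Other enzymes of breakdown and pool cleaning had members on both sides of 0. Of 19 measured, 0 were at least 1.5-fold lower and 2 higher, beside 5.78% and 6.3% of all measured probe sets. The median was 0.02. CDA, which deaminates cytidine and deoxycytidine and so competes with DCK for its substrate, had 6.37 with DMSO and 7.28 with LXR623, a difference of 0.91. NT5E, the surface nucleotidase CD73, had 7.06 and 7.95, a difference of 0.89. NUDT1, which removes oxidized dGTP, had a difference of -0.50, within 1.5-fold. DCTD, which deaminates dCMP toward thymidylate, differed by 0.11.

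The folate cycle that delivers the methyl group to TYMS had 6 measured genes, of which 1 was at least 1.5-fold lower. SLC19A1, the reduced folate carrier of the plasma membrane, had 6.76 with DMSO and 5.75 with LXR623, a difference of -1.01 and larger in size than that of any of the 9 members. GGH, SHMT1 and FPGS differed by -0.23, -0.16 and 0.00. Among 6 measured nucleoside transporters 0 passed 1.5-fold in either direction, with SLC29A1, the main equilibrative carrier, at -0.57 and SLC29A4 also at -0.57. The lysosomal carrier SLC29A3 had 0.48.

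Genes that make the ribonucleotides on which the reductase acts had mostly negative differences, few of which reached 1.5-fold. The median of 12 measured genes of de novo purine synthesis was -0.36. Of these, 2 were at least 1.5-fold lower, PFAS with -0.79 and GMPS with -0.60, and 0 higher, beside 5.78% and 6.3% of all measured probe sets. After each rescaling of the arrays the count was 1. Of 5 genes of de novo pyrimidine synthesis, 1 was at least 1.5-fold lower, CTPS1, which makes CTP from UTP, with 8.64 and 7.85. The median of these 5 genes was -0.47, with DHODH, the step on the inner mitochondrial membrane, at -0.55 and CAD, which opens the pathway, at -0.38. Over both routes, 14 of 17 genes had negative differences.

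**Figure D4:**
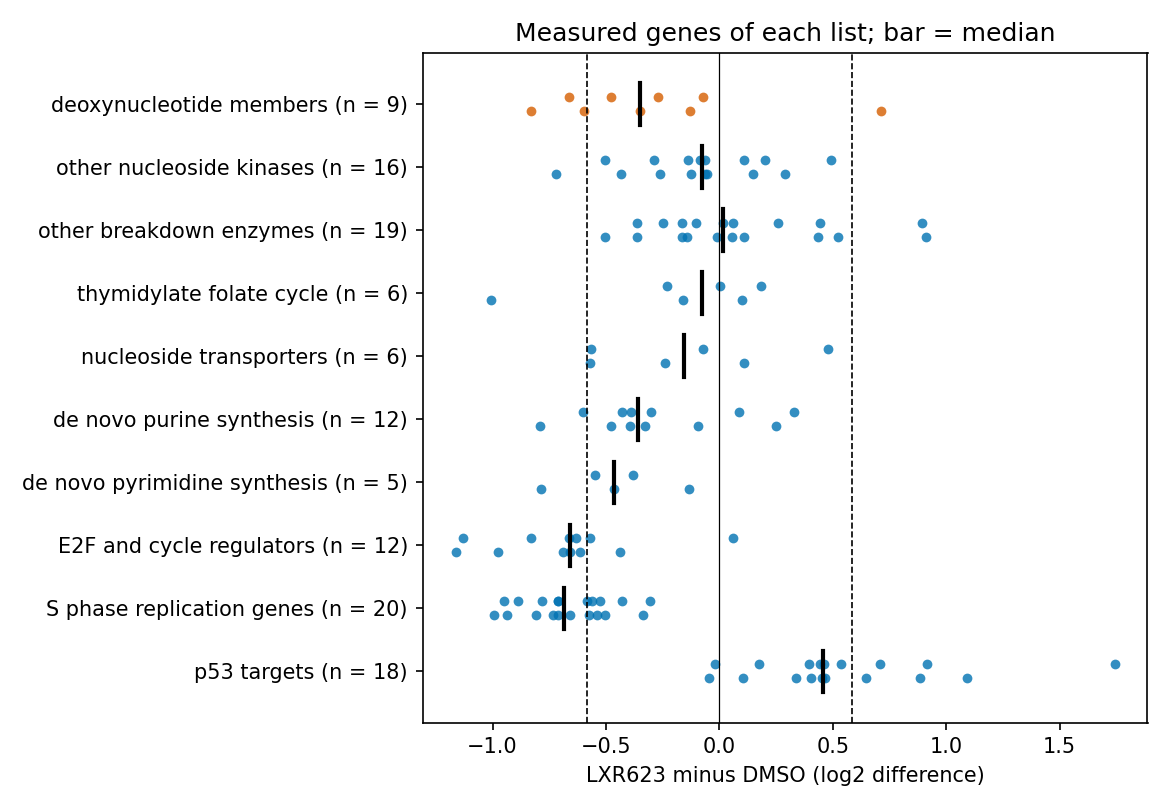
Log2 difference (LXR623 minus DMSO) for each measured gene (points) of the members and of 9 lists of related genes, with the median as a black bar and dashed lines at 1.5-fold. Medians lie at -0.35 for the members, -0.66 for E2F and cell cycle regulators, -0.68 for S phase replication genes and 0.46 for p53 targets.

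Regulators of the members and markers of S phase moved with the lower members. Of 12 E2F factors and cell cycle regulators known to act on members, 9 were at least 1.5-fold lower and 0 higher. At 2-fold, 2 were lower. Over all measured probe sets 5.78% were at least 1.5-fold lower and 6.3% higher, and 0.741% at least 2-fold lower. E2F2 had a difference of -1.16, E2F3 of -0.62 and E2F1, within 1.5-fold, of -0.44. CCNE2 and CCNE1, the cyclins that drive entry into S phase, had -1.13 and -0.98. CCNF, the F-box protein that marks RRM2 for degradation, had 8.27 with DMSO and 7.64 with LXR623, a difference of -0.63. SKP2, CDK1, CCNA2 and CDK2 were also at least 1.5-fold lower, at -0.83, -0.69, -0.66 and -0.66, of which CDK1, CDK2 and CCNA2 form kinases known to phosphorylate SAMHD1. FZR1, which directs degradation of TK1 and RRM2 in G1, differed by 0.06.

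Of 20 genes linked to replication in S phase, 11 were at least 1.5-fold lower, 0 at least 2-fold lower and 0 at least 1.5-fold higher. Over all measured probe sets these shares were 5.78%, 0.741% and 6.3%. Differences were negative in 20 of 20, from -0.99 for GINS2 to -0.31 for CDT1. GINS1, part of the replicative helicase with GINS2, had -0.95, CDC45 of the same helicase -0.78, RFC3 of the clamp loader -0.89, POLE2 of polymerase epsilon -0.81, and UHRF1, which maintains DNA methylation, -0.94. The median of this list was -0.68, and RRM2 was the member with a lower difference than that. The part of the cell cycle in the values of the members was not tested. With 1 culture per condition, the compound and any other difference between the cultures cannot be told apart.

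RRM2B moved with other targets of p53. Of 18 such genes that were measured, 6 had values at least 1.5-fold higher and 0 lower, and 2 were at least 2-fold higher. Over all measured probe sets these shares were 6.3%, 5.78% and 1.38%. The median difference of the 18 genes was 0.46. CDKN1A, the inhibitor p21, had 6.49 with DMSO and 7.38 with LXR623, a difference of 0.89, and TP53INP1 had 1.09. TP53I3 differed by 0.65 and MDM2, the ligase that degrades p53, by 0.47, whereas BAX and TIGAR had -0.02 and -0.05. GDF15 with 1.74, BBC3 with 0.91 and SESN2 with 0.71 respond to other stress pathways as well. The part of p53 in the difference of RRM2B was not tested.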

How the data were processed

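Total RNA of 1 HCT116 culture per condition was biotin-labelled with a WT Plus kit and hybridized to Affymetrix arrays. The authors made the deposited log2 intensities by RMA, and affy 1.36.1 and R 2.15.1 are listed in the processing notes of the submitters. RMA equalizes the distributions of the arrays, so a shift shared by most genes would not show. The probe annotation of the platform gave 1 symbol to 22458 of 23786 probe sets, and the other 1328 were unnamed here. Genes of the lists that the annotation did not name were not analysed here.

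Per probe set, the DMSO value was subtracted from the LXR623 value. A test was not possible with 1 array per condition, so genes were counted by a threshold of 1.5-fold. Each member was also set beside the 500 measured probe sets nearest in mean intensity, as a description. Named genes were the 9 members, overlapping loci and, in each list, up to 6 genes past 1.5-fold or otherwise the 3 of largest difference. Others were read out to complete a role and were chosen after their values were seen. The members and lists were chosen with earlier results of these data known. Alternatives concerned the filter, the scaling (quantile normalization, median centring, removal of a lowess trend with fraction 0.3) and the threshold. Promoters came from RefSeq, build GRCh38.p14. The build and the probe design behind the arrays are not given in the sources used here. Python 3.11.15, numpy 2.4.6, pandas 2.3.3 and statsmodels 0.14.6 were used, with matplotlib 3.10.9 for the figures. Simulated data with known differences served to check the procedure.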

Additional observations from a re-analysis of the deposited data

How the results depend on the processing

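No paired analysis was possible because each condition had a single array. The 3 members at least 1.5-fold lower became 0 at 2-fold and 5 at a log2 difference of 0.32, and the 1 higher member became 0 at 2-fold. The median of the members, -0.35, ranged from -0.41 to -0.31 when each member was left out in turn, and the mean was -0.30. Filters on dim probe sets cannot move the difference of a member. Of 27 differences recalculated under the 3 rescalings, 24 kept their direction and their side of 1.5-fold, and 3, all of DCTPP1, kept only their direction. Of 90 recalculated medians of lists, 1 crossed the threshold, that of LXR targets when both values had to reach the median of the table, at 0.58. Of 240 recalculated counts of lists 32 moved by over 1.5 times, 26 of them with the threshold. At 2-fold, S phase replication genes went from 11 lower to 0, E2F and cell cycle regulators from 9 lower to 2 and p53 targets from 6 higher to 2. Without a filter on dim probe sets, the 1.5-fold counts over all probe sets were 1133 lower and 1242 higher. With the filter, 91 and 169 were at 2-fold, and 2362 and 2223 at a log2 difference of 0.32, where 710 and 773 were at 1.5-fold. The number of arrays limits the precision of every value.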

Other observations

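Genes that sense a shortage of dNTPs and protect stalled replication forks were read as a further list. Of 11 measured, 4 were at least 1.5-fold lower and 0 higher in the LXR623 array, beside 5.78% and 6.3% of all measured probe sets. Differences were negative in 11 of 11, and the median was -0.48. CLSPN, the adaptor that passes the signal from ATR to CHK1, had 8.57 with DMSO and 7.37 with LXR623, a difference of -1.20. WEE1, the kinase that restrains CDK1 and CDK2, had -0.76, TOPBP1, which activates ATR, -0.71 and ATRIP, the partner of ATR, -0.71. CHEK1, which encodes CHK1, had 8.06 and 7.91, a difference of -0.15. These transcripts come from the same 2 arrays as the members and had negative differences like the replication genes. The part of the cell cycle in them was not tested.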
